A study of Mus musculus with 4 samples.

Results

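Pontin and Reptin, encoded by Ruvbl1 and Ruvbl2, were examined together with 8 genes for partner subunits of the chromatin complexes that they enter: Kat5, Ep400, Trrap, Dmap1, Brd8, Actl6a, Ino80 and Srcap. The 10 genes were taken by name from the GENCODE vM21 annotation, with or without a peak, out of 21755 protein-coding genes on the chromosomes that carry peaks. The question was where arginine-methylated Pontin was bound at the genes of its own complexes. The series holds 4 chromatin immunoprecipitation (ChIP) libraries from wild-type mouse embryonic fibroblasts (MEFs), 1 each of ChIP with an antibody against methylated Pontin (mePontin) and of input DNA, in normal medium and in glucose starvation medium. The values below come from the authors' peak list for the starved mePontin library. The mePontin library in normal medium was not analysed here, so no value below compares the media. No library has a replicate, hence no test between samples was possible. A peak list holds no expression values, so the fibroblast label could not be checked against marker genes.

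Pontin and Reptin are related ATPases of the AAA+ family that assemble into a mixed ring. The ring is a shared part of the TIP60 acetyltransferase complex and of the SRCAP and INO80 nucleosome remodelers, and in the cytoplasm it works with the R2TP co-chaperone, which helps to build large protein assemblies such as the PI3K-like kinases. TIP60 acetylates histones H4 and H2A, SRCAP places the histone variant H2A.Z into nucleosomes, and INO80 slides nucleosomes.

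Of the 10 genes, 4 had a promoter peak, defined as a peak centre within 2.5 kb of any annotated transcription start site (TSS) of the gene: Ruvbl1, Kat5, Trrap and Brd8. This share of 40.0% stood beside 17.2% of all protein-coding genes. A peak centre within the gene body was found for 3 genes, Kat5, Trrap and Ino80, beside 11.4% of all protein-coding genes, and the peaks of Kat5 and Trrap were the promoter peaks already counted. Ruvbl2, Ep400, Dmap1, Actl6a and Srcap had neither. A gene without a peak is one where no region passed the authors' limits in this library, which is not the same as the absence of binding.

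The sequences under 3 of the peaks are printed because the peaks differ in kind. The Kat5 stretch lies directly upstream of the gene, and its capitals mark a TFEB-type E-box. The Ruvbl1 and Ino80 stretches are the central 300 bases of their peaks, and their capitals mark bases that the RefSeq assembly masks as repeats. Each is given 5′ to 3′ along the strand of its gene, from GRCm38 (mm10).
Kat5, chr19:5610238-5610410, minus strand: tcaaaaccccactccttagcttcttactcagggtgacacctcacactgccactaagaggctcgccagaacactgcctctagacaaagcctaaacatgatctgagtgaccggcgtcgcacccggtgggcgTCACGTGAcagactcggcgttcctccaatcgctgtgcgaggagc
Ruvbl1, chr6:88464782-88465081, plus strand: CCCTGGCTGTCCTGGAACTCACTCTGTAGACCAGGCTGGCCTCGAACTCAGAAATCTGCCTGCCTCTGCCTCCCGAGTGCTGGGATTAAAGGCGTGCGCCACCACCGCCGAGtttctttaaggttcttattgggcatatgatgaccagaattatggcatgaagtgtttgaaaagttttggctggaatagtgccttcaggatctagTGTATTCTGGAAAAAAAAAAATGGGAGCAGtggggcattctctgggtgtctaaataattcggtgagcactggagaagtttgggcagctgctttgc
Ino80, chr2:119454935-119455234, minus strand: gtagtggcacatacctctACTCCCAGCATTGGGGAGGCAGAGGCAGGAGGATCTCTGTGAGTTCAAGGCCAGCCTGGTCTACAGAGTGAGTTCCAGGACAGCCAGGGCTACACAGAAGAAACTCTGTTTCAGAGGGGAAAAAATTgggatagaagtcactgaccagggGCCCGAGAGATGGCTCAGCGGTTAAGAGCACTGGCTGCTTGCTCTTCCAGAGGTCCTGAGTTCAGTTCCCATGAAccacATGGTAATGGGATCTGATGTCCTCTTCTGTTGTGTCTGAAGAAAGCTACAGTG

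The whole list held 4311 peaks, each 481 bp wide, called from 20765512 tags. Signal was the normalized tag count, that is, the tags in a peak per 10000000 tags of the library. Over all peaks it ranged from 7.46 to 112.4, with a median of 14.2 and quartiles of 12 and 17.3. The median peak therefore rested on about 29.5 tags, and the lowest peak score equalled the caller's false discovery limit of 18 tags. Intervals given below are exact 95% Poisson intervals of the tags in 1 library, and they cover counting error only.

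Kat5, which encodes the TIP60 acetyltransferase itself, carried the strongest of the members' peaks. Its peak at chr19:5609930-5610410 had a normalized tag count of 28.4 (95% Poisson interval 21.6 to 36.6), about 59.0 tags, which ranked 33 among all peaks. The centre lay 67 bp downstream of the nearest Kat5 TSS, in the 5′ part of the gene that is annotated as UTR, and the peak spanned 6 Kat5 start sites. Tags in the peak were 14.7-fold over input and 8.05-fold over the surrounding 10 kb. No other gene had a TSS within 2.5 kb of the centre.

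Ruvbl1, the Pontin gene, had a peak in front of its start rather than over it. The peak at chr6:88464692-88465172 had a normalized tag count of 19.3 (95% Poisson interval 13.8 to 26.3), percentile 85.8 of all peaks. Its centre lay 477 bp upstream of the first base of the gene, between genes, and the peak ended 237 bp short of that base, so it held no Ruvbl1 TSS. Enrichment was 12.5-fold over input and 7.30-fold over the surrounding region. No other gene started within 2.5 kb, which leaves Ruvbl1 as the only annotated gene there. Repeat-masked bases made up 49.5% of the peak, against a median of 8.73% over all peaks, and 34.4% of its 32-base stretches occur more than once in the genome, against a median of 0%. The part of these repeats in the tag count was not tested.

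Trrap, the large scaffold subunit that contacts transcription activators, had a peak at an inner start site. The peak at chr5:144768515-144768995 had a normalized tag count of 18.8 (95% Poisson interval 13.4 to 25.7), at percentile 83.6. The centre lay 39 bp upstream of the TSS of the protein-coding transcript Trrap-203 and 1023 bp downstream of the 5′ end of the gene, in an intron. It spanned 2 Trrap start sites, was 12.3-fold over input and had no other gene nearby.

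Brd8, the bromodomain subunit of TIP60, shared its peak with a neighbour. The peak at chr18:34624532-34625012 had a normalized tag count of 19.0 (95% Poisson interval 13.5 to 25.9), at percentile 84.8, and was 8.20-fold over input, below the median of 8.81-fold for all peaks. The centre lay 171 bp upstream of the nearest Brd8 TSS but only 37 bp from a TSS of Kif20a, a mitotic kinesin gene transcribed in the opposite direction. The 481 bp peak held 3 Brd8 start sites, and its signal could not be assigned to either gene. TSSs of at least 2 genes stood within 2.5 kb for 35.0% of the 3382 promoter-proximal peaks.

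**Figure D1:**
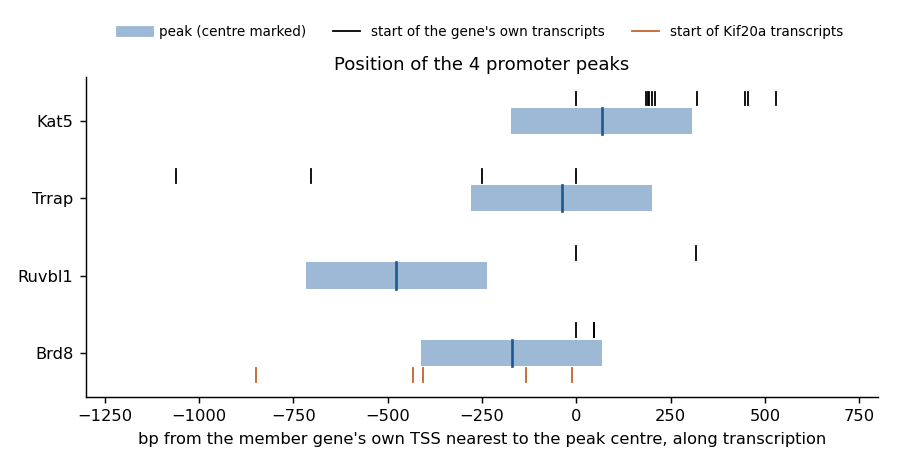
Position of the 4 promoter peaks relative to the TSS of the member gene itself that is nearest to each peak centre, in bp along the direction of transcription of the member gene. Blue bars are the peaks with their centres marked, black ticks are start sites of the gene itself and orange ticks those of Kif20a; the Kat5, Trrap and Brd8 peaks cover a start site of their own gene, and the Ruvbl1 peak ends 237 bp upstream of the first one.

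Ino80, the ATPase of the INO80 remodeler, had no promoter peak but 1 peak in an intron. This peak at chr2:119454845-119455325 had a normalized tag count of 18.8 (95% Poisson interval 13.4 to 25.7), the same value as at Trrap, and was 16.2-fold over input. It lay 22602 bp inside the gene and 15405 bp from the closest Ino80 TSS, and no gene started within 2.5 kb. Masked repeats covered 74.8% of it, percentile 98.9 of all peaks, and 30.2% of its 32-base stretches occur more than once in the genome. Their part in the call was not tested. At the Kat5, Trrap and Brd8 peaks 0% of such stretches were repeated.

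Counting error set a limit on any order among these peaks. The lower bound for Kat5, 21.6, was above the median of all peaks and above the point values of the other members, which lay between 18.8 and 19.3. However, the intervals of Ruvbl1, Trrap, Brd8 and Ino80 reached up to between 25.7 and 26.3 and so overlapped that of Kat5, and each of the 4 also included the all-peak median of 14.2. The median of the 4 promoter peaks was 19.2, compared with 14.9 over the strongest promoter peak of each of the 3747 protein-coding genes that had one. By percentile of normalized tag count the 4 had a median of 85.3, whereas ranked by fold over input the median was 66.6 and by fold over the surrounding region 95.4. The share of tags placed as for a single site, HOMER's focus ratio, was 0.594 to 0.657 at the 4 promoter peaks and 0.713 at Ino80, with a median of 0.667 over all peaks.

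**Figure D2:**
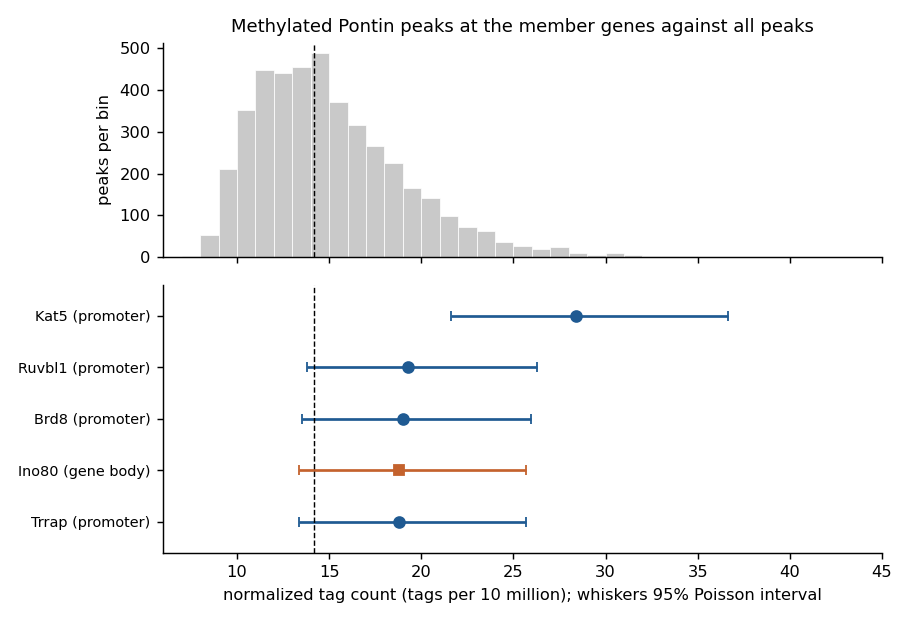
Normalized tag count (tags per 10000000) of all 4311 peaks in bins of 1 unit (upper panel, cut at 45 on the axis) and of the members' 5 peaks with exact 95% Poisson intervals (lower panel; circles, promoter peaks; square, the intronic Ino80 peak). The dashed line is the median of all peaks, 14.2; the Kat5 interval alone lies wholly above it.

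For the 5 genes with no peak of their own, the nearest peak lay at the start site of another gene in 5 of 5 cases. Over the whole list 78.5% of peaks had a TSS of some gene within 2.5 kb. Ruvbl2, the Reptin gene, had its nearest peak 22.1 kb upstream, 283 bp from a TSS of Ftl1, the ferritin light chain gene, with a normalized tag count of 17.3 (percentile 75.2). The genes Gm10252 and Gm22133 also started within 2.5 kb of it. In this library a promoter peak was thus called at the Pontin gene Ruvbl1 and none at Ruvbl2, although both proteins enter the same ring. The peak list gives no tag count for the Ruvbl2 promoter, so the 2 genes differ in the call only.

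The nearest peak to Ep400, the ATPase subunit of TIP60, was 14.6 kb from its closest TSS, an inner start site of a non-coding transcript. It was 117094 bp from the 5′ end of Ep400 and past the 3′ end. There it stood at the paired starts of the RNA helicase gene Ddx51 (77 bp) and the ribosome biogenesis gene Noc4l (206 bp). This peak had a low normalized tag count of 11.3 (percentile 18.7) but was 29.28-fold over input (percentile 91.1). Actl6a, the actin-like subunit BAF53A, had its nearest peak 18.6 kb from its closest TSS, an inner start site. The peak lay 30877 bp from the 5′ end of Actl6a and past its 3′ end, at the starts of Mrpl47 (28 bp) and Ndufb5 (48 bp). These encode a mitochondrial ribosomal protein and a subunit of respiratory complex I. The peak had a normalized tag count of 16.1 and was only 4.64-fold over input (percentile 8.35). Srcap, the ATPase of the SRCAP remodeler, had its nearest peak 41.3 kb upstream at Prr14 (303 bp), with 14.4, close to the all-peak median.

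Dmap1, a subunit shared by TIP60 and SRCAP, was the only member with no peak within 50 kb of any of its annotated start sites. Its nearest peak was 132.0 kb away, 421 bp from a TSS of the exoribonuclease gene Eri3. That peak had a high normalized tag count of 24.6 (percentile 97.2) but was only 4.54-fold over input (percentile 6.81), close to the authors' limit of 4-fold. The other 9 members had a peak centre within 50 kb of a TSS, compared with 39.7% of protein-coding genes. For Ep400 this held from an inner start site and not from the 5′ end of the gene, 117094 bp from that peak. The median distance to the nearest peak was 14.98 kb for the 10 members and 87.7 kb for protein-coding genes. Both medians run from the closest annotated start site of each gene. For Ino80 and Actl6a this was also an inner one, and their peaks lay 22602 and 30877 bp from the 5′ ends. Medians from the 5′ ends are not given here.

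**Figure D3:**
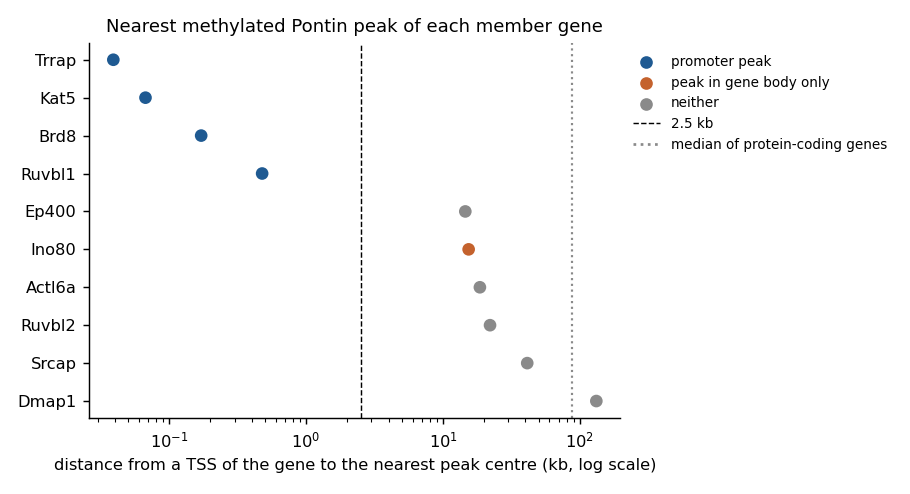
Distance from the closest TSS of each member gene to the nearest mePontin peak centre, in kb on a log scale. The closest TSS of Trrap, Ino80, Actl6a, Ep400 and Dmap1 is an inner start site. Their peaks lay 1023, 22602, 30877, 117094 and 132329 bp from the 5′ ends of these genes, respectively. Points are genes (blue, promoter peak; orange, peak in the gene body only; grey, neither), the dashed line is the 2.5 kb limit and the dotted line the median of protein-coding genes, 87.7 kb; no member lies between 0.477 and 14.6 kb, and Dmap1 alone lies beyond the dotted line.

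Some members had further peaks within 50 kb of the gene, and the genes at these were named after their values were seen. Of the 3 peaks in this window at Ruvbl1, 1 was its own and another lay at Eefsec, 18.5 kb from a Ruvbl1 TSS, with the same normalized tag count of 19.3 and 24.9-fold over input. The remaining peak, at Gm44430 and 53.6 kb from a Ruvbl1 TSS, had 16.6 and was 10.8-fold over input. Ruvbl2 had 3 peaks in this window, of which the one at Ftl1 had the highest normalized tag count. Another, at 13.0 and 6.73-fold over input, lay at Bax, a pro-apoptotic gene. The remaining one, at 11.6 and 9.97-fold over input, lay at Snrnp70. Kat5 had a second one 26.9 kb away at Rela, the NF-κB p65 gene, at 18.5. Brd8 had a second one 27 kb away at Cdc23, an anaphase-promoting complex gene, at 20 and only 4.31-fold over input. The peak at Brd8 itself had 19.0 and was 8.20-fold over input.

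The other genes of the same complexes were taken as a wider list of 37 genes, namely subunits and H2afz and H2afv, the genes of the histone variant that SRCAP handles as a substrate, written from their known composition and with earlier results of these data known. A promoter peak was found for 18 of them (48.6%), and for 22 of all 47 genes (46.8%), against the 17.2% of protein-coding genes. Without H2afz and H2afv it was 17 of 35. By complex, as listed, the count was 12 of 19 genes for TIP60, 5 of 11 for SRCAP, 4 of 15 for INO80 and 6 of 13 for R2TP with the TTT co-factors. TIP60 had the highest share (63.2%) and INO80 the lowest (26.7%) of these. Actb was listed under TIP60 alone, and β-actin is known in the other remodelers too: counted there as well, the count was 6 of 12 for SRCAP and 5 of 16 for INO80. Without the H2A.Z genes it was 4 of 9 for SRCAP. The complexes overlap in Ruvbl1, Ruvbl2, Actl6a, Dmap1 and others, and no difference between them was tested.

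**Figure D4:**
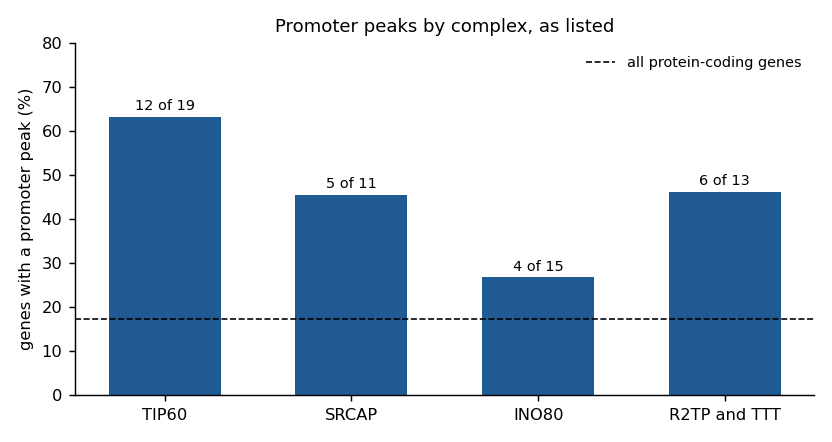
Share of the genes of each complex that had a mePontin promoter peak, in percent, with the count above each bar. The dashed line is the 17.2% of all protein-coding genes; bars run from 26.7% for INO80 to 63.2% for TIP60, and Ruvbl1 and Ruvbl2 are counted in each bar.

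Among the other TIP60 subunits the strongest promoter peaks were at the related enhancer-of-polycomb genes Epc1 and Epc2, which encode the scaffold of the acetyltransferase module. Epc1 had a normalized tag count of 26.5 (95% Poisson interval 19.97 to 34.49) at 626 bp downstream of its nearest TSS, an inner start site, and a non-coding gene, Gm28529, started nearer, at 75 bp. This peak lay 25878 bp from the 5′ end of Epc1. Epc2 had 22.6 (16.6 to 30.1) at 340 bp downstream in a coding exon, with no other gene nearby. The histone reader genes Yeats4, Mbtd1 and Morf4l1 had 20.7, 15.2 and 12.8, respectively, and Actb, whose β-actin protein is also a subunit, had 15.9. With the 5′ end of each gene as its only TSS, 4 of the 18 calls were lost, those of Epc1, H2afz, Uri1 and Wdr92. Yeats4 was 53.6-fold over input, the highest of the 18. Vps72, the H2A.Z chaperone subunit of TIP60 and SRCAP, had 19.5.

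For SRCAP, Znhit1 had a normalized tag count of 16.1 at a peak whose centre was 126 bp from its TSS and 4 bp from a TSS of Plod3. H2afz, the gene for H2A.Z itself, was counted through a peak (15.9) 2208 bp downstream of its nearest TSS, an inner start site. The centre lay 2849 bp from the 5′ end of H2afz, past its 3′ end, and nearer to Dnajb14 (339 bp). At a 1 kb limit H2afz would not be counted. Of the INO80 genes, Ino80b and Ino80d had 12.8 and 12.5, both below the median of all peaks. In the R2TP and TTT group, Tti2 had 21.4, Pih1d1 19.7, Uri1 18.5 and Rpap3 14.4. Pih1d1, the adaptor that joins the ring to its clients, was 51.7-fold over input. The 3 remaining genes with a promoter peak had 10.1 to 11.6.

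Some of these peaks also stood near a neighbour's start site. Of the 18 peaks, 11 had the TSS of another gene within 2.5 kb. Over all 3382 promoter-proximal peaks, 35.0% had TSSs of at least 2 genes within that distance. In 8 of the 18 the other gene's TSS was nearer than the gene's own. Both held for 1 of the members' 4 peaks, that of Brd8. A share over all peaks for a nearer TSS is not given here. The centre was upstream of the nearest own TSS in 3 of 4 member peaks and in 7 of 18 of the others, beside 55.2% of protein-coding genes with a promoter peak. The 18 had a median normalized tag count of 15.9, and 6 of them exceeded 18.8, the lowest value of the members' promoter peaks.

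Short motif letters were searched on both strands of the 4 promoter peaks and the Ino80 peak. Kat5 held most of the matches. The letters TCACGTG (TFEB), found in 5.73% of all peaks, occurred in Kat5 as 1 palindromic site, TCACGTGA, read on both strands and overlapping, whose centre was about 107 bp from the peak centre on the upstream side. TGACGTC (CREB; 3.71% of peaks) occurred once in Kat5. CCGGAAG (ETS; 15.3%) occurred at 2 places in Kat5 and 1 in Brd8, GGGCGGG (Sp/KLF; 27.1%) once each in Kat5 and Trrap, and AAGATGG (YY1; 11.5%) once each in Kat5 and Brd8. GTAAACA (FOXO, 5.08%), GCGGGAA (E2F, 9.26%) and GCATGCG (NRF1, 4.64%) matched in 0 of the 5 peaks. The Ruvbl1 and Ino80 peaks held none of the 8 motifs, and the share of all peaks that held none is not given here. In the RefSeq promoter table (GRCm38.p6; 250 bases before to 50 after a gene start) 9 of the 10 members were found, all but Brd8. GGGCGGG stood in the promoters of 7 of these 9 genes, against 25.6% of all 32851 promoters. Of the genes with no promoter peak, those 7 included Ruvbl2, Actl6a, Ino80 and Srcap. The count is by gene, with a match in any of its promoters, while the share is by promoter. The members' promoters ran from 45.7% GC (Ruvbl1) to 71.0% (Ep400), and all but that of Ruvbl1 exceeded the median of 52.7% over all promoters. The part of GC in these matches was not tested. TCACGTG stood in 1 of the 9, again Kat5, against 3.77% of all, and TGACGTC in Ruvbl2 and Kat5, against 3.21%. GTAAACA stood in 0 of the 9. A match is a description of the letters in the window and not evidence of a bound site.

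Base composition differed widely among the members. The GC content was 42.8% at the Ruvbl1 peak, 50.9% at Brd8, 61.1% at Kat5, 66.7% at Trrap and 42.0% at the Ino80 intron peak, against a median of 53.0%. The ratio of observed to expected CpG was 0.368 at Ruvbl1 and 0.143 at Ino80, the 2 lowest of the 5, and 0.902 at Brd8, with a median of 0.552 over all peaks. Across protein-coding genes, the share with a promoter peak varied with GC: when they were split into 5 bins of about equal size by GC of the 1 kb around the 5′ end, 3.004%, 12.2%, 21.2%, 25.2% and 24.4% of genes had one, from the lowest to the highest. Of the members without a promoter peak, Ep400 (69.4%) and Ino80 (68.7%) had the highest GC at their 5′ ends and Actl6a the lowest (39.5%). Dmap1 (51.5%) fell in the second lowest bin, and Ruvbl2 (56.1%) and Srcap (57.8%) in higher ones. Of the members with one, Ruvbl1 (50.5%) fell in the second lowest bin, and Brd8 (54.5%), Kat5 (57.2%) and Trrap (58.2%) in higher ones. The part of GC in the members' count was not tested.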

How the data were processed

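Of the 4 libraries, 1 peak list was analysed, that of mePontin ChIP in glucose-starved MEFs. Per the labels and file headers, the authors aligned reads to mm10 with Bowtie2 and called peaks with HOMER 4.7.2 against input (FDR 0.001, with limits of 4-fold and p = 0.0001 against both the input and 10 kb of flanking sequence), without pooling. The deposited signal is the normalized tag count per 10000000 tags. The authors' file also gives the focus ratio (a fraction), the HOMER score, fold ratios against input and against the flanks, and their Poisson p-values, which were not printed. In all, 3 columns of values were not used, of which 1 could not be assigned to an input library by its name.

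Peaks were joined to GENCODE vM21, of the same build, by the distance of the peak centre (2.5 kb) to any TSS. Tag counts were recovered as normalized tag count times total tags over 10000000. Percentiles are mean ranks among all peaks. Python 3.11.15, pandas 2.3.3, NumPy 2.4.6, SciPy 1.17.1 and matplotlib 3.10.9 were used, and the distance search was tested on simulated data. Sequences were read from the RefSeq GRCm38 assembly. The members and lists were chosen with earlier results of these data known. Named were all 10 members, at most 15 other complex genes with a promoter peak, by normalized tag count, and the genes at members' promoter or nearest peaks. Outside this rule, Wdr92 was named only as a call lost with the 5′ end alone, and the genes at further peaks within 50 kb as stated there. Alternatives covered the distance, TSS set, peak subset, ranking measure and motif window. With 1 library and no replicate, no test was run.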

Additional observations from a re-analysis of the deposited data

How the results depend on the processing

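The count of members with a promoter peak was 4 under all 7 alternatives, and the same 4 genes were found each time; the other complex genes ran from 12 to 19, and were 17 without H2afz and H2afv. The share of protein-coding genes with a promoter peak was 16.3% at 1 kb, 18.3% at 5 kb, 16.7% with TSSs of protein-coding transcripts, 15.8% with the 5′ end alone, 10% with peaks at least 8-fold over input and 9.65% with the 2155 peaks of highest score. It was 18.55% among genes in the members' GC range (this, the list without the H2A.Z genes and the wider counting of Actb were chosen after seeing the data). Members with a gene-body peak fell from 3 to 1 when 2.5 kb around each TSS was left out. The share of protein-coding genes under that rule is not given here, and the 11.4% given above includes promoter peaks. The median percentile of the members' promoter peaks was 81.9 among peaks at least 8-fold over input, 70.57 among those 2155 peaks, 90.6 ranked by score, 66.56 by fold over input, 95.38 by fold over the surrounding region and 83.16 among promoter-proximal peaks. Motif matches, counted as motif and peak pairs, went from 8 of 32 to 3 of 32 in the central 200 bp, while the share over all peaks went from 10.28% to 3.645%; among promoter-proximal peaks it was 11.81%. No paired analysis was possible because the series has 1 library per group and no result comes from a test. Depth limits the call of weak sites, since the caller's limit was 18 tags.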
